A study of Mus musculus with 7 samples.

Results

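Collagen genes were examined across mouse basal cell carcinoma, newborn epidermis and a carcinoma cell line. They were taken as every non-control probe set of the array that the platform annotation assigned to exactly 1 gene named Col, a number, a and a number, leaving out Col17a1, which had 1 probe set. The rule gave 81 probe sets for 41 genes, out of 45101 probe sets and 18193 genes measured, and none of the 81 was also assigned to another gene. By the type of collagen that they encode, 11 genes were fibrillar, 9 belonged to the basement membrane and its attachment (types IV, VII, XV and XVIII), and 21 were of other types. The members were chosen by name, and no expression value entered the choice.

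RNA was measured on 7 single-channel Affymetrix arrays, and the values are signal intensities. The groups were basal cell carcinoma tumour tissue (2 arrays), normal epidermis of newborn mice at postnatal day 0 (2 arrays), and a cell line of mouse basal cell carcinoma, PDKC1, at 0, 6 and 10 h (1 array each). The 0 h cells were the untreated control, and the others had been treated with cyclopamine, an inhibitor of the Hedgehog pathway component Smoothened, for 6 or 10 h. Neither the cyclopamine dose or vehicle nor the genotype, strain and age of the mice with tumours is given in the sources used. PDKC1 is 1 line, and its arrays were made from 2000 ng of RNA against 100 ng for each tissue array, so line, culture and RNA amount cannot be told apart when PDKC1 is set beside tissue. Age is given for the epidermis alone, so carcinoma and age cannot be told apart. The labels name no separate animals, so the p-values reflect only how far the arrays of a tissue lay apart, which may be technical. In tissue arrays, fewer cells of a type and less RNA per cell cannot be told apart.

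The arrays differed in ways that touch every gene. The ratio of 3' to 5' signal for Actb was 11.3 and 93.1 in the tumours, against 3.98 and 2.84 in the epidermis, and 1.15 to 1.21 in PDKC1. For Gapdh it was 10.6 and 15.4 in the tumours, against 5.27 and 4.52 in the epidermis, and 0.699 to 0.741 in PDKC1. All 12 measured keratinocyte markers were over the median probe set of the array in both tumours and both epidermis arrays. In PDKC1 at 0 h 9 of the 12 were, and Cdh1 (59.4), Krt1 (28.3) and Epcam (9.6) were under its median of 78.1. The median probe set was at 118.2 and 127.9 in the tumours, against 71.0 and 75.3 in the epidermis.

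Collagens are secreted proteins of 3 chains wound into a triple helix. Fibrillar collagens, led by types I and III in the dermis, assemble into the fibres that give connective tissue its strength and are made mainly by fibroblasts. Type IV collagen forms the sheet-like network of the basement membrane under the epidermis, and type VII forms the anchoring fibrils that tie this membrane to the dermis. The remaining types bind to fibrils, form beaded filaments or short-chain networks, or span the cell membrane.

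Collagen genes were higher in tumour than in newborn epidermis in all 3 classes, and 0 were lower. Of the 41 genes 29 were higher by limma at an adjusted p under 0.05 (18193 genes), while 16.6% of all genes were called higher and 12.5% lower. Their median difference, tumour minus epidermis on the log2(intensity + 16) scale, was 1.98, beside 0.09 over all genes. By class, 10 of 11 fibrillar, 6 of 9 basement membrane and 13 of 21 other genes were higher, with median differences of 2.50, 1.16 and 1.77. Both tumour arrays lay above both epidermis arrays for 35 of the 41 genes, against 35.8% of all genes, and both lay below for Col6a5. At an unadjusted p under 0.05 by limma, 33 of the 41 differed, beside 7345 of all 18193 genes.

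The count depended on the scaling of the arrays and on each epidermis array, while the absence of lower genes did not. With quantile normalization 23 collagen genes were higher, and with arrays centred on their medians 20 were, with 0 lower under both. The same scalings moved the median of all genes to -0.19 and -0.55, and the share of higher genes among all calls to 44.4% and 23.7%, beside 57.1% as deposited. Relative to the median of all genes, the collagen median was 1.89 as scaled by the authors and 1.77 with quantile normalization. Centring shifts the difference of every gene by the same amount, so it cannot change this value. Without epidermis array 1, 16 collagen genes were higher, and without epidermis array 2 also 16. Called under every alternative were 15 genes: Col1a1, Col1a2, Col3a1, Col4a4, Col5a1, Col5a2, Col6a1, Col6a2, Col6a3, Col9a3, Col11a1, Col14a1, Col23a1, Col25a1 and Col27a1.

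**Figure D1:**
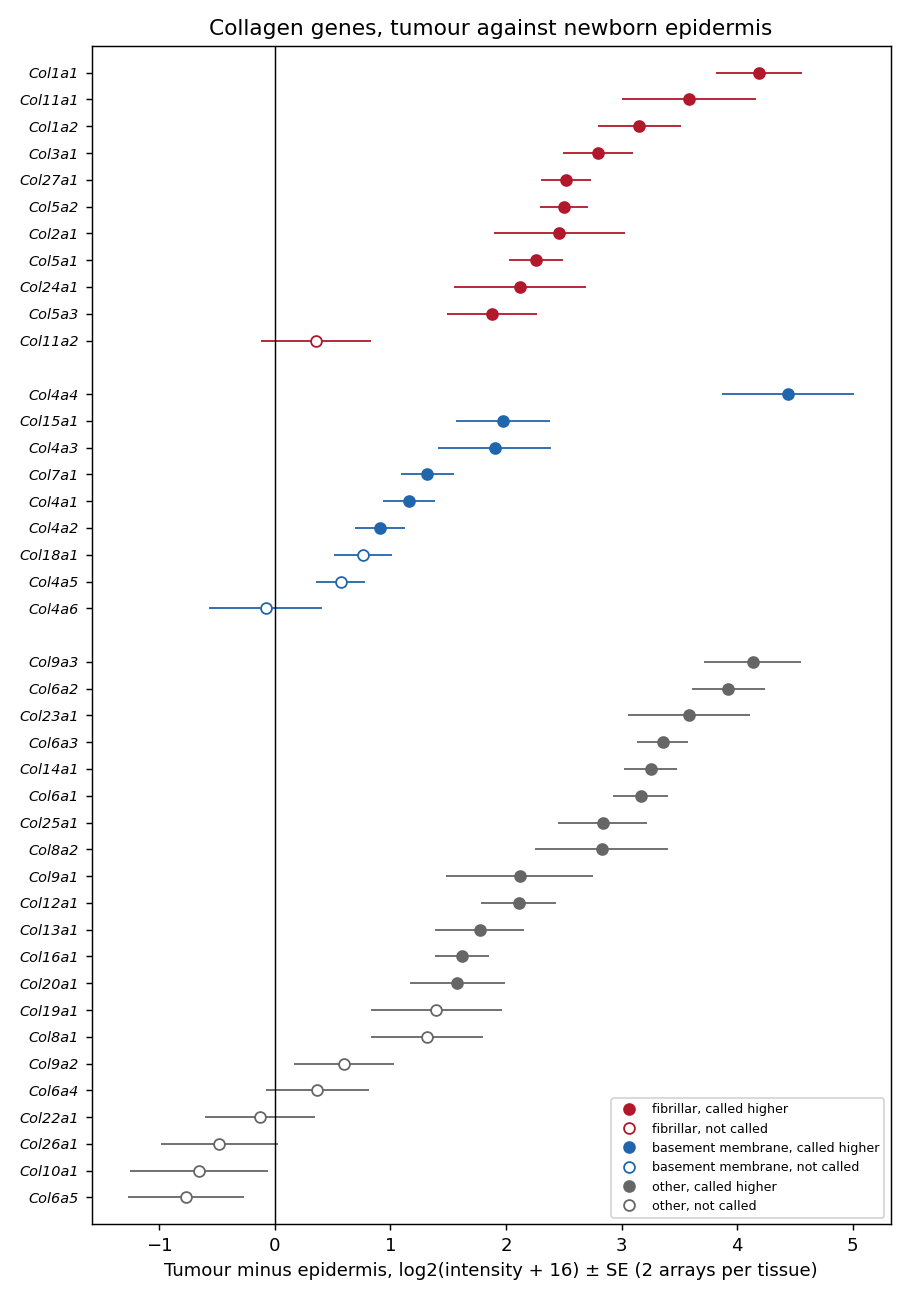
Difference of each of the 41 collagen genes, tumour minus epidermis, in log2(intensity + 16), with 1 standard error (2 arrays per tissue), in the classes fibrillar, basement membrane and other from top to bottom. Filled points are the 29 genes called higher by limma and open points the 12 not called, and Col4a4 lies farthest to the right at 4.44.

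Type I and type III collagen, the main fibres of the dermis, were higher in both tumours. Col1a1, the larger part of the type I helix, was at 2992.7 and 4870.0 in the tumours, against 269.2 and 138.9 in the epidermis (probe set 1455494_at). Its difference of 4.19 ± 0.37 (SE) was the largest of the fibrillar genes (adjusted p = 0.000903 by limma). Col1a2, the partner chain of type I, was at 19092.6 and 29639.9 in the tumours, against 3622.2 and 1948.1 in the epidermis, a difference of 3.15 ± 0.36 (adjusted p = 0.00162). The groups did not overlap for either chain, and tumour 2 and epidermis array 1 were the higher arrays of their tissues. Col3a1, the chain of type III, which is found with type I in skin, was at 22487.1 and 28243.3 in the tumours, against 4683.0 and 2791.3 in the epidermis, a difference of 2.80 ± 0.30 (adjusted p = 0.00135). All 7 probe sets of these 3 genes were called higher, with differences of 2.60 to 4.67.

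Promoter windows, 300 bases around the annotated start and most of them before it, were taken from RefSeq (GRCm38.p6) and matched for 32 of the 41 genes in 35 windows. They are shown for 2 dermal fibre genes that were higher together in the tumours, Col1a2 (chr6:4505368-4505667, plus strand) and Col3a1 (chr1:45311288-45311587, plus strand), since their letters differ. Capitals mark 3 motifs, read on both strands. The GC box was searched for as the letters GGGCGG. The CCAAT box was searched for by the letters of its name. The TATA box was searched for as TATAAA. A GC box and a CCAAT box on opposite strands can share letters, and each was counted.
Col1a2: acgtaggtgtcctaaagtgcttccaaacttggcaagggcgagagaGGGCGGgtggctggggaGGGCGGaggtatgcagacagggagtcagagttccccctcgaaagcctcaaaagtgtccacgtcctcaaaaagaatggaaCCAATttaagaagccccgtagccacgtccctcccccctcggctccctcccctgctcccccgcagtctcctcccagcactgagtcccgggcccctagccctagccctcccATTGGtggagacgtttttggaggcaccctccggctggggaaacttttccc
Col3a1: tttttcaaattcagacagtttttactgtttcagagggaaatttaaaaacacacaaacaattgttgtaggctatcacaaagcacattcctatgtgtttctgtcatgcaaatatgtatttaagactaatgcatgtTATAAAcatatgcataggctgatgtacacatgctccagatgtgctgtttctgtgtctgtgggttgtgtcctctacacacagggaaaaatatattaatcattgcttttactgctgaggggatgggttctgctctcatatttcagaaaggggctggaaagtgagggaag
The Col1a2 window held 2 GC boxes and 2 CCAAT boxes and was 61.0% G or C. The Col3a1 window held 1 TATA box and was 37.7% G or C. Among the 35 collagen windows 22 held a GC box (62.9%), beside 35.7% of all 32851 windows. A CCAAT box was in 12 (34.3%, beside 37.4% of all) and a TATA box in 4 (11.4%, beside 13.6%). These matches describe letters and do not show binding.

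Type V collagen, a minor partner that sets the diameter of type I fibrils, was also higher. Col5a2 was at 7880.2 and 9773.5 in the tumours, against 1549.4 and 1526.4 in the epidermis, a difference of 2.50 ± 0.21 (adjusted p = 0.000752). Col5a1 was at 2429.1 and 2961.5 in the tumours, against 606.0 and 495.2 in the epidermis, a difference of 2.26 ± 0.23 (adjusted p = 0.00121). The groups lay far apart for both chains compared with the arrays within a tissue. Probe set 1416741_at, 1 of the 3 of Col5a1, was not called (0.20, adjusted p = 0.835 over all probe sets). It read 98.8 and 58.1 in the tumours, against 87.8 and 46.4 in the epidermis. Col5a3 was at 523.8 and 317.8 in the tumours, against 106.2 and 92.9 in the epidermis (1.88 ± 0.39, adjusted p = 0.0127), and it was not called with either other scaling or with the mean of its probe sets.

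Fibrillar genes best known from cartilage divided by array. Col11a1, a chain of the minor fibril collagen type XI, was at 357.3 and 704.9 in the tumours, against 52.3 and 11.4 in the epidermis, a difference of 3.58 ± 0.58 (adjusted p = 0.0054). Col2a1, the main fibril collagen of cartilage, was at 212.7 and 85.5 in the tumours, against 18.4 and 6.2 in the epidermis, a difference of 2.46 ± 0.56 (adjusted p = 0.0188). Tumour 2 was the higher tumour for Col11a1 and tumour 1 for Col2a1, and the groups overlapped for neither. Col11a2, the other type XI chain measured in this class, was at 86.8 and 46.9 in the tumours, against 41.9 and 52.0 in the epidermis, where the groups overlapped (0.36, adjusted p = 0.636). Its difference turned to -0.10 with quantile normalization and -0.28 with centring.

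Both remaining fibrillar genes, of types XXVII and XXIV, were higher. Col27a1, which encodes a fibrillar collagen of cartilage and developing epithelia, was at 2759.0 and 3007.7 in the tumours, against 460.2 and 520.6 in the epidermis, a difference of 2.52 ± 0.21 (adjusted p = 0.00077). The arrays within each tissue were close and the groups did not overlap. Col24a1 was at 67.8 and 186.4 in the tumours, against 9.5 and 19.2 in the epidermis, a difference of 2.12 ± 0.57 (adjusted p = 0.0324). Col24a1 was not called with either other scaling or without tumour 2, and with a pseudocount of 64 its difference was 1.22. The difference of Col2a1 was 1.42 with that pseudocount, the epidermis levels of both genes lying near or under 16. Without epidermis array 1 or without array 2, 7 fibrillar genes were called, and Col2a1, Col5a3 and Col24a1 were lost each time.

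**Figure D2:**
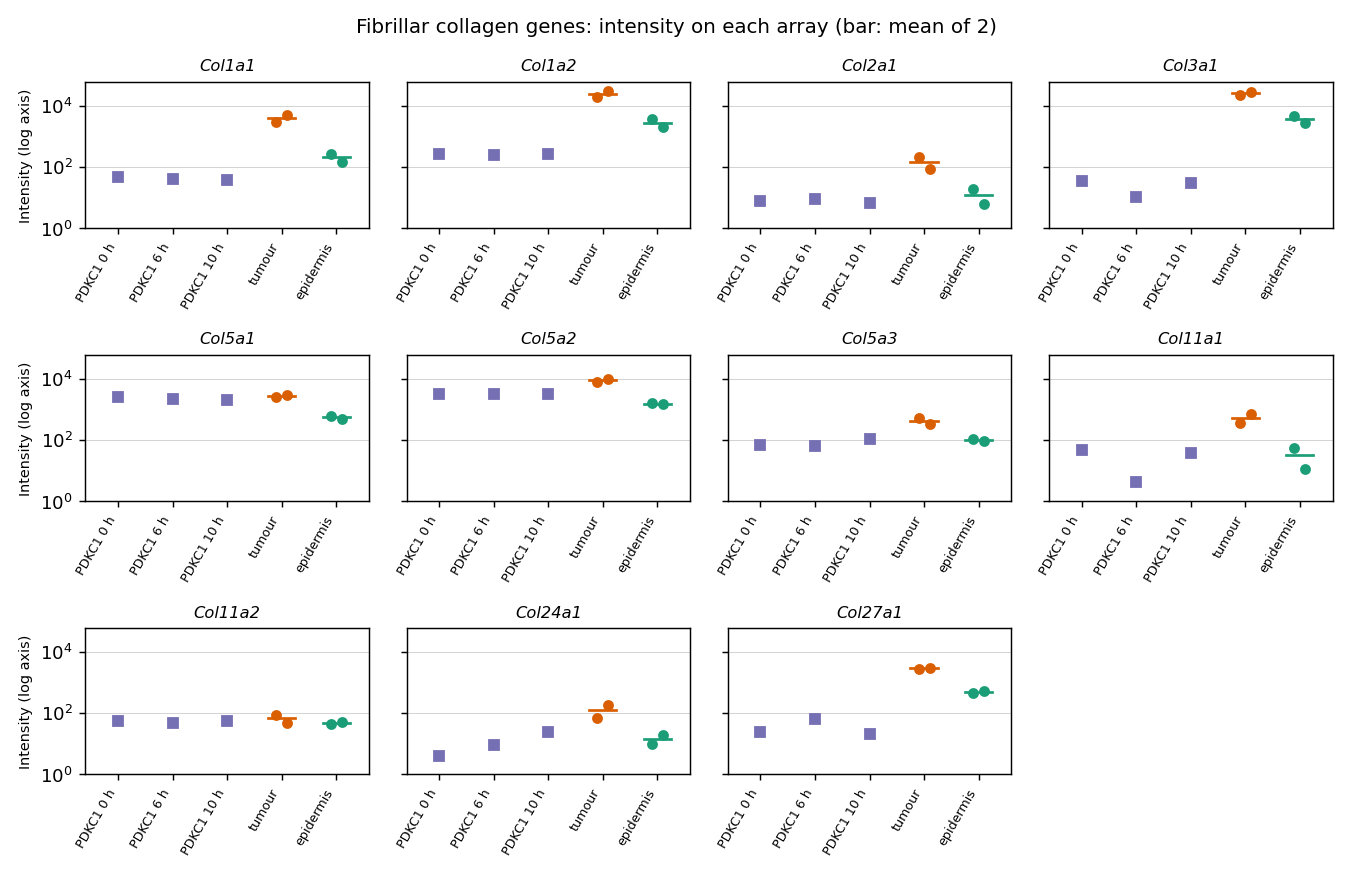
Signal intensity (log axis) of the 11 fibrillar collagen genes on each of the 7 arrays: PDKC1 at 0, 6 and 10 h (squares), tumour and epidermis (circles, with a bar at the mean of 2). Both tumours lie above both epidermis arrays in every panel except Col11a2, and Col1a1, Col3a1 and Col27a1 are under 70 on every PDKC1 array.

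Fibroblast markers differed together with the fibrillar genes. Of 14 measured fibroblast markers 11 were higher in the tumours and 1, Fbln1, was lower, with a median difference of 1.96. Their summed intensity was 54332.7 and 60802.6 in the tumours, against 20183.7 and 21758.6 in the epidermis. Pdgfrb, a growth factor receptor of fibroblasts and pericytes, was at 2116.0 and 1631.0 in the tumours, against 67.8 and 47.6 in the epidermis (4.68 ± 0.32). Pdgfra, another such receptor, differed by 3.51, the surface glycoprotein gene Thy1 by 3.35 and the transcription factor gene Prrx1 by 3.32. In both epidermis arrays 11 of the 14 markers were over the median probe set, so the epidermis arrays also carried signal of these genes. The fibroblast list had 8 higher and 1 lower with quantile normalization, and 7 higher and 1 lower with centring. Among 8 pericyte and smooth muscle markers 4 were higher (Rgs5, Cspg4, Tagln and Acta2) and 0 lower. In PDKC1 at 0 h Acta2 (22868.0) and Tagln (92.3) were over the median probe set, while Rgs5 (1.3) and Cspg4 (18.3) were under it. Among 9 endothelial markers 3 were higher (Vwf, Tek and Flt1) and 0 lower. Skeletal muscle markers had 3 of 9 higher and 0 lower, Schwann cell markers 3 of 5 higher and 1 lower, adipocyte markers 2 of 4 higher and 0 lower, and macrophage and melanocyte markers 2 of 8 and 2 of 6 higher with 1 lower each. Of 12 keratinocyte markers 0 were higher and 2, Krt1 and Krt14, lower. Over all genes 16.6% were higher and 12.5% lower, and several of these short lists lie near those shares. Tumour 1 stood apart in the summed skeletal muscle signal, at 17086.8 and 3148.8 in the tumours, against 658.2 and 565.4 in the epidermis. With quantile normalization 1 keratinocyte marker was higher and 1 lower, and with centring 0 were higher and 8 lower. Under either scaling 0 adipocyte markers were higher. Over all 18193 genes 2158 were higher and 2699 lower with quantile normalization, and 1463 and 4713 with centring. The part of all these cell types in the collagen differences was not tested.

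The type IV chains of the basement membrane differed from each other. The chains α1 and α2, which make the common type IV network of nearly all basement membranes, were modestly higher in the tumours. Col4a1 was at 7549.6 and 6590.8 in the tumours, against 2735.8 and 3609.1 in the epidermis, a difference of 1.16 ± 0.23 (adjusted p = 0.0106). Col4a2 was at 1600.4 and 1639.4 in the tumours, against 784.1 and 926.5 in the epidermis, a difference of 0.91 ± 0.22 (adjusted p = 0.0211). Neither pair of groups overlapped, but the other probe set of Col4a1 (1426348_at) was not called, at 1227.3 and 774.2 in the tumours, against 470.8 and 748.1 in the epidermis. Both genes also lost the call with each array centred on its median and without the variance trend.

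Col4a3 and Col4a4, whose chains join α5 in the specialised network of kidney and lung basement membranes, showed the larger differences of the type IV genes. Col4a4 was at 538.8 and 1609.5 in the tumours, against 19.2 and 38.2 in the epidermis, a difference of 4.44 ± 0.57 (adjusted p = 0.00242). A further probe set of Col4a4, 1445328_at, read 837.5 and 1864.5 in the tumours, against 13.7 and 41.7 in the epidermis. The remaining probe set, 1425772_at, read 52.3 and 178.2 in the tumours, against 17.0 and 30.7 in the epidermis, and was not called. Tumour 2 was the higher tumour on all 3, and the groups did not overlap. Col4a3 was at 53.7 and 100.1 in the tumours, against 12.0 and 4.7 in the epidermis (1450224_at, 1.90 ± 0.49, adjusted p = 0.0281). Its other probe set, 1438779_at, was at 153.9 and 533.8 in the tumours, against 7.6 and 5.1 in the epidermis, a difference of 3.78 ± 0.65. The epidermis levels of Col4a3 were under the pseudocount of 16, and with pseudocounts of 64 and 4 the difference of 1450224_at was 0.94 and 2.72. That call was lost with each array centred on its median and without tumour 2.

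Col4a5 and Col4a6, whose chains occur together in the basement membrane of skin, were not called. Col4a5 was at 1841.1 and 2209.8 in the tumours, against 1309.0 and 1394.8 in the epidermis, without overlap (0.57 ± 0.21, adjusted p = 0.0873). It was called without tumour 1, and its difference was -0.068 with each array centred on its median. Col4a6 was at 264.5 and 110.9 in the tumours, against 149.8 and 223.1 in the epidermis, where the groups overlapped (-0.08, adjusted p = 0.928). Its other probe set, 1421007_at, was at 749.1 and 315.0 in the tumours, against 301.8 and 370.7 in the epidermis (0.52, not called), so the probe sets of Col4a6 differed in sign.

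The type IV genes lie as pairs of neighbours in the RefSeq annotation (GRCm38.p6): Col4a1 with Col4a2 on chromosome 8, Col4a3 with Col4a4 on chromosome 1, and Col4a5 with Col4a6 on chromosome X. Both genes were called higher in each of the pairs on chromosomes 8 and 1, and neither was in the pair on chromosome X. The windows of Col4a1 (chr8:11312777-11313076, minus strand) and Col4a2 (chr8:11312555-11312854, plus strand) share 78 bases. The Col4a1 window is shown beside that of Col4a4 (chr1:82586800-82587099, minus strand), as members of the called pairs with the smaller and the larger tumour difference, with the same motifs in capitals.
Col4a1: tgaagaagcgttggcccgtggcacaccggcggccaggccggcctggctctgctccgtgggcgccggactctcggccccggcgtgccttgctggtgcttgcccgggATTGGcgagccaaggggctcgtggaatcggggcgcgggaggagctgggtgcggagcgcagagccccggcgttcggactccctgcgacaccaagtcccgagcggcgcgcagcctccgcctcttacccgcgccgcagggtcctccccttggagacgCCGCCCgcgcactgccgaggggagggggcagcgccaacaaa
Col4a4: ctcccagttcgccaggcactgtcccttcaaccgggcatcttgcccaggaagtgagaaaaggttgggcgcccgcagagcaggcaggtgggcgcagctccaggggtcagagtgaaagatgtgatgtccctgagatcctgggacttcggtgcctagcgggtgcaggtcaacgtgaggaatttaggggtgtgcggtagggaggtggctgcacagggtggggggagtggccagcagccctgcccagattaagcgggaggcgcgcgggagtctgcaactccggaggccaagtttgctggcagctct
The Col4a1 window held 1 GC box and 1 CCAAT box at 74.0% G or C, and the Col4a4 window held none of the 3 motifs at 63.3% G or C. Of 9 basement membrane windows 6 held a GC box, 5 a CCAAT box and 0 a TATA box, while the 8 fibrillar windows held them in 6, 3 and 2.

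**Figure D3:**
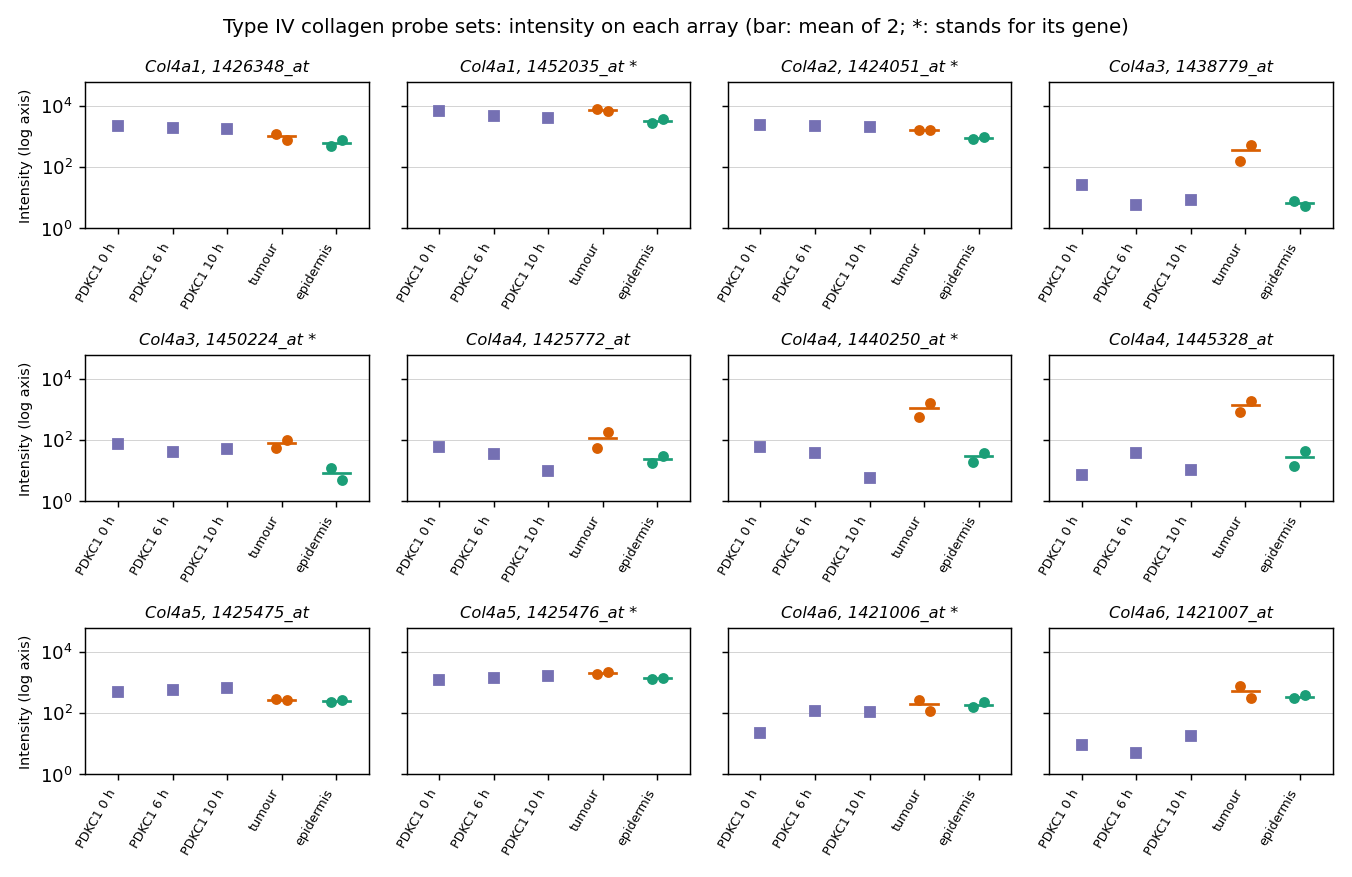
Signal intensity (log axis) of the 12 type IV collagen probe sets on each array: PDKC1 at 0, 6 and 10 h (squares), tumour and epidermis (circles, bar at the mean of 2). An asterisk marks the probe set that stood for its gene. The probe sets 1440250_at and 1445328_at of Col4a4 and 1438779_at of Col4a3 set the tumours apart from the other arrays, while the 2 probe sets of Col4a6 differ at 6 and 10 h in PDKC1.

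The remaining genes of the class were higher or not called. Col7a1, the anchoring fibril collagen, was at 4286.9 and 3581.7 in the tumours, against 1365.7 and 1786.0 in the epidermis, a difference of 1.32 ± 0.23 (adjusted p = 0.00704) that lost its call with each array centred on its median. Col15a1, a basement membrane zone collagen found around vessels and muscle, was at 269.9 and 423.5 in the tumours, against 64.7 and 84.6 in the epidermis (1.98 ± 0.41, adjusted p = 0.0126), and it was not called with quantile normalization. Col18a1, the precursor of endostatin, was at 2746.8 and 1966.7 in the tumours, against 1219.3 and 1520.0 in the epidermis (0.76 ± 0.25, adjusted p = 0.0613). Col18a1 did not pass the test although its groups did not overlap, and it was called without tumour 2. With each array centred on its median 2 of the 9 genes were called higher, Col4a4 and Col15a1. Without epidermis array 1 or without array 2 only Col4a4 was.

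Type VI collagen, which forms beaded filaments around cells, had 3 of its 5 genes higher in the tumours. Col6a1 was at 8521.6 and 6223.1 in the tumours, against 861.0 and 737.7 in the epidermis, a difference of 3.17 ± 0.24 (adjusted p = 0.000613). Col6a2 was at 8810.1 and 12905.5 in the tumours, against 895.0 and 526.8 in the epidermis, a difference of 3.92 ± 0.32 (adjusted p = 0.000713). Col6a3 was at 6540.7 and 8621.4 in the tumours, against 756.1 and 685.3 in the epidermis, a difference of 3.35 ± 0.22 (adjusted p = 0.000463). These 3 chains make the common type VI molecule, and every tumour array was above every epidermis array for each. The alternative chains Col6a4 and Col6a5 were at 2.3 to 31.8 in the tumours, against 13.5 to 33.7 in the epidermis, under the median probe set on all arrays, and were not called.

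Among the 9 fibril-associated collagens, which bind to the surface of fibrils, 6 were higher and 0 lower. Col14a1, found on type I fibrils of skin, was at 4256.9 and 4776.2 in the tumours, against 404.3 and 521.8 in the epidermis (3.25 ± 0.23, adjusted p = 0.000498). Col12a1, its close relative, was at 1049.2 and 1858.4 in the tumours, against 295.2 and 328.6 in the epidermis (2.11 ± 0.32, adjusted p = 0.0044). The groups did not overlap for either, but 3 of the 4 probe sets of Col12a1 were not called, and Col12a1 lost its call with the mean of its probe sets and without epidermis array 1. Col16a1, present at the junction of dermis and epidermis, was at 1436.5 and 1453.1 in the tumours, against 502.2 and 420.2 in the epidermis (1.62 ± 0.23, adjusted p = 0.00346). Col20a1 was at 280.8 and 206.9 in the tumours, against 83.5 and 58.3 in the epidermis (1.58, adjusted p = 0.0293). Col20a1 lost its call with both other scalings and without tumour 1.

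Of the type IX chains, which coat type II fibrils in cartilage, Col9a3 and Col9a1 were the other called members of that group. Col9a2 was not called (0.60, adjusted p = 0.354 by limma) and was under the median probe set on every array. Col9a3 was at 834.5 and 519.0 in the tumours, against 26.9 and 18.4 in the epidermis, a difference of 4.13 ± 0.42 (adjusted p = 0.00119). Col9a1 was at 767.9 and 204.4 in the tumours, against 105.5 and 59.5 in the epidermis, a difference of 2.12 ± 0.63 (adjusted p = 0.0462). Tumour 1 was the higher tumour on these probe sets, but tumour 2 was on the other probe sets of Col9a3, 1460693_a_at (424.8 and 554.8 in the tumours, against 36.1 and 61.6 in the epidermis) and 1420280_x_at (19.4 and 48.8 in the tumours, against 3.7 and 4.8 in the epidermis). Col9a1 was not called with 8 of the 12 alternatives fitted, among them both scalings and leaving out tumour 1 or either epidermis array. The other probe set of Col9a1, 1421381_a_at, was not called, at 149.8 and 77.4 in the tumours, against 83.2 and 52.4 in the epidermis. Of 9 chondrocyte markers 3 were higher than in the epidermis (Acan, Cnmd and Sox9) and 1 was lower (Ucma), beside 16.6% higher and 12.5% lower over all genes. All 9 were higher in tumour 1 than in tumour 2, while tumour 2 was above tumour 1 for 48.2% of all genes. Under either other scaling 1 chondrocyte marker was higher and 1 lower. Over all 18193 genes 11.9% were higher and 2699 lower with quantile normalization, and 8.04% higher and 4713 lower with centring. Their summed intensity was 5159.2 and 1864.4 in the tumours, against 570.2 and 774.2 in the epidermis. The cartilage proteoglycan gene Acan was at 1444.5 and 809.5 in the tumours, against 73.2 and 81.8 in the epidermis. Sox9 was at 1491.6 and 803.3 in the tumours and at 1108.1 in PDKC1 at 0 h, where Acan was at 43.2. The part of these markers in the type II, IX and XI differences was not tested.

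The 3 transmembrane collagens were higher in the tumours. Col23a1 was at 512.8 and 981.7 in the tumours, against 74.5 and 24.5 in the epidermis (3.58 ± 0.53, adjusted p = 0.00385). Col25a1, whose product is known from neurons and muscle, was at 1196.3 and 730.5 in the tumours, against 150.4 and 90.7 in the epidermis (2.84 ± 0.38, adjusted p = 0.00286). The other probe set of Col25a1, 1421427_at, was not called and was under the median probe set on every array. It read 74.7 and 70.2 in the tumours, against 20.6 and 23.9 in the epidermis. Col13a1, a component of cell adhesion sites and the neuromuscular junction, was at 288.0 and 356.2 in the tumours, against 69.3 and 97.6 in the epidermis (1.77 ± 0.38, adjusted p = 0.0151). The groups overlapped for none of the 3, and Col13a1 lost its call with both other scalings. Tumour 1, with the higher skeletal muscle sum, was the higher tumour for Col25a1 and the lower for Col13a1 and Col23a1 (1440911_at). The order for Col23a1 depended on the probe set, as tumours 1 and 2 read 503.4 and 404.6 on 1429210_at. On 1429209_at they read 254.1 and 256.9. Col8a2, a short-chain collagen of the cornea and vessels, was at 407.3 and 165.9 in the tumours, against 36.2 and 13.2 in the epidermis (2.83 ± 0.58, adjusted p = 0.0122). The 8 genes of the other types that were not called had differences of -0.77 to 1.40. The class kept 8 called genes without epidermis array 1, where Col9a1, Col12a1, Col13a1, Col16a1 and Col20a1 were lost. It also kept 8 without epidermis array 2, where Col8a2, Col9a1, Col13a1, Col16a1 and Col20a1 were lost.

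Every member probe set was also tested by itself. Of 81 probe sets 47 were higher in the tumours and 0 lower, beside 18.3% higher and 9.17% lower among 45037 probe sets. Of the 27 genes with several probe sets, all probe sets were higher for 9, some for 11 and none for 7. Signs differed between the probe sets of 5 genes, Col4a6, Col8a1, Col12a1, Col19a1 and Col22a1. Of the 34 probe sets not called, 16 were under the median probe set on every array. Without epidermis array 2, 29 probe sets were called higher.

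The arrays of a tissue were not ordered alike in the 3 classes. Tumour 2 was above tumour 1 for 8 of 11 fibrillar, 5 of 9 basement membrane and 10 of 21 other genes, beside 48.2% of all genes. Epidermis array 2 was above array 1 for 3 of 11 fibrillar, 8 of 9 basement membrane and 8 of 21 other genes, beside 52.0% of all genes. The fibrillar genes were thus mostly higher in epidermis array 1 and the basement membrane genes mostly higher in array 2. With 2 arrays per tissue these orders have no test.

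Genes that modify, fold, trim, crosslink or bind collagen were counted in the same fit. Of 54 listed genes 49 were measured, 17 were higher (34.7%, beside 16.6% of all genes) and 4 lower (beside 12.5% of all genes), and their median difference was 0.49. With quantile normalization 11 were higher (beside 11.9% of all genes) and 4 lower (beside 2699 of 18193 genes). With arrays centred on their medians 7 were higher (beside 8.04%) and 7 lower (beside 4713 of 18193 genes), so the split depended on scaling. The number higher was 5 without epidermis array 1 and 5 without array 2. With the mean of each gene's probe sets it was 11. Of the called genes followed through the alternatives, Pcolce, Lox, Ddr2, Ctsk and Pepd kept their calls in all of them. The counts of the short lists within the pathway are small and are to be read against these shares over all genes.

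Of 4 lysyl oxidase genes, which crosslink collagen outside the cell, 3 were higher and 0 lower. Lox was at 1785.9 and 1579.4 in the tumours, against 267.1 and 158.8 in the epidermis (2.93 ± 0.31, adjusted p = 0.00126), Loxl4 differed by 2.50 and Loxl1 by 1.53. Of 8 genes that trim procollagen 3 were higher and 0 lower. Pcolce, an enhancer of the removal of the C-terminal propeptide, was at 2562.4 and 3073.4 in the tumours, against 117.0 and 64.3 in the epidermis (4.77 ± 0.32, adjusted p = 0.000467). The groups did not overlap for Lox or Pcolce. Bmp1, the protease that Pcolce enhances, differed by 1.22, and Adamts3, which removes N-terminal propeptides, by 2.03. The trimming genes had 2 higher with quantile normalization and 1 with centring, and the lysyl oxidases 2 under either, with 0 lower in all.

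Of 15 hydroxylation genes 1 was higher, P3h3, a prolyl 3-hydroxylase family member (1.71), and 2 were lower. P4hb, the shared subunit of prolyl 4-hydroxylase that also acts as a protein disulfide isomerase, was at 10990.0 and 7158.2 in the tumours, against 21383.3 and 21494.5 in the epidermis (-1.27 ± 0.27, adjusted p = 0.0142). P3h4, a partner of lysyl hydroxylation in the same compartment, differed by -1.79. All 3 lost their calls without epidermis array 1 and without array 2, P3h3 and P4hb also with quantile normalization, P3h3 with centring and P4hb without the variance trend. Of 11 chaperone and export genes 5 were higher and 1 lower. Serpinh1, the collagen-specific chaperone HSP47, was at 2124.5 and 2190.9 in the tumours, against 468.6 and 818.5 in the epidermis (1.77 ± 0.30, adjusted p = 0.00609). The prolyl isomerase genes Fkbp7, Fkbp9 and Fkbp14 differed by 1.64, 1.46 and 1.23. The export genes Sec24d and Sec13, parts of the COPII coat, were the remaining calls, at 1.20 and -0.98. The median difference of the 15 hydroxylation genes was 0.12 as deposited and turned to -0.41 with quantile normalization and -0.52 with centring, and that of the chaperone and export genes was 0.60 and turned to -0.04 with centring.

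Of 11 genes for collagen receptors and breakdown 5 were higher and 1 lower. Ctsk, a protease that cleaves triple-helical collagen, was at 2833.1 and 2534.8 in the tumours, against 157.9 and 136.5 in the epidermis (4.05 ± 0.24, adjusted p = 0.000436). Ddr2, a receptor tyrosine kinase that binds fibrillar collagen, differed by 2.99, and Itga10, a collagen-binding integrin subunit, by 1.65. Itga1, another such subunit, differed by 1.53, and Ddr1, the epithelial relative of Ddr2, by 1.33. Pepd, a peptidase that frees proline from collagen fragments, was the gene that was lower, at 770.4 and 579.9 in the tumours, against 6263.2 and 4480.8 in the epidermis (-2.96 ± 0.26, adjusted p = 0.000849). Itga10 and Ddr2 were under 40 on every PDKC1 array, as was Ctsk. In PDKC1 at 0 h 6 of the 11 genes were over the median probe set, among them Itgb1 (10586.5), Ddr1 (6125.9), Itga2 (530.6) and Itga1 (211.1). With quantile normalization 3 of the 11 were higher and with centring 2, with 1 lower under both.

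The untreated PDKC1 line held a narrower set of collagen genes than the tumours. At 0 h 18 of 41 genes were over the array's median probe set (43.9%, beside 59.1% of all genes), against 29 in both tumours (70.7%, beside 57.4% of all genes) and 22 in both epidermis arrays (53.7%, beside 60.6%). By class they were 3 of 11 fibrillar, 5 of 9 basement membrane and 10 of 21 other genes. PDKC1 was below both tumours for 30 of the 41 genes, beside 47.4% of all genes, and above both for 5, beside 35.2%. It was below both epidermis arrays for 17, beside 44.7%, and above both for 17, beside 40.1%. The median difference, PDKC1 at 0 h minus tumour, was -2.71 for fibrillar, -0.72 for basement membrane and -1.39 for other genes. Over all genes it was -0.19. With 1 untreated array no test was made.

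Type I, type III and type XXVII genes were low in the line. Col3a1 was at 33.7 in the untreated line, against 22487.1 and 28243.3 in the tumours and against 4683.0 and 2791.3 in the epidermis. Col1a1 was at 46.9 in PDKC1, under its median probe set of 78.1, and Col27a1 at 23.5. Col1a2 was over that median at 267.6, against 19092.6 and 29639.9 in the tumours. For all 4 genes PDKC1 was also below both epidermis arrays. Col6a3 (97.2) and Col14a1 (80.4) were likewise below both tissues, near the median of the array.

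Other collagen genes of the line were at tissue levels or above them. Col18a1 was at 6092.8 in the untreated line, against 2746.8 and 1966.7 in the tumours and against 1219.3 and 1520.0 in the epidermis. Its other probe set, 1418237_s_at, read 6377.3, against 1213.6 and 1153.7 in the tumours and against 531.8 and 987.9 in the epidermis. Col4a2 was at 2291.8, against 1600.4 and 1639.4 in the tumours, so PDKC1 was above all tissue arrays for both genes. Col4a1 was at 6574.6 and Col5a1 at 2454.1, and both were above both epidermis arrays and differed from the tumour mean by -0.10 and -0.13 on the log2 scale. Their other probe sets were not level with the tumours. Col4a1 read 2096.0 on 1426348_at, against 1227.3 and 774.2 in the tumours. Col5a1 read 454.7 on 1416741_at, against 98.8 and 58.1 in the tumours. On 1434479_at it read 1150.3, against 1625.3 and 1980.8 in the tumours. Col5a2 (3125.2 on 1422437_at), Col6a1 (3277.4) and Col6a2 (1716.0) lay between the tumours and the epidermis, and so did Col7a1 (2337.8). The other probe set of Col5a2, 1450625_at, was below both tissues at 526.5.

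The chains of type VI collagen were therefore not alike in PDKC1. Col6a1 and Col6a2 were above both epidermis arrays and Col6a3, their partner in type VI, was below both. On 1422437_at Col5a2 was above both epidermis arrays, while its neighbour on chromosome 1, Col3a1, was below both. On 1450625_at Col5a2 was also below both, at 526.5 in PDKC1 against 768.7 and 682.5 in the epidermis. Of 14 fibroblast markers 5 were over the median probe set in PDKC1 at 0 h, with a summed intensity of 28547.9 to 32123.8 over its 3 arrays. Most of that sum came from Vim, an intermediate filament gene, at 22197.6 at 0 h, and Fbln2 at 8369.5. Pdgfra (6.9) and Pdgfrb (26.3) were under the median, and the keratin genes Krt5 (31321.6) and Krt14 (33584.7) were over it.

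Collagen genes of the line were followed over PDKC1 arrays at 0, 6 and 10 h with cyclopamine. Among 21 collagen genes over the median on some PDKC1 array, 0 were at least 2-fold lower than at 0 h at both times and 1 was at least 2-fold higher. Over 11585 such genes 1.01% were lower and 0.924% higher by the same rule. The differences of the 21 genes from 0 h were -1.09 to 1.83 at 6 h and -1.0 to 1.76 at 10 h, with medians of -0.17 and -0.04. Of the 21 genes 11 were lower at both times and 3 higher at both, by any amount. No share over all genes was counted for this filter. Over all 41 genes the differences were -1.61 to 1.83 at 6 h and -1.82 to 1.76 at 10 h, many of them from levels under the median. Of the 21 genes 15 were over the median on all 3 arrays, a selection that leaves out genes whose level crossed the median. Among those 15, 8 were lower at both times and 2 higher, beside 3393 and 3456 of all 9971 genes selected alike. There was 1 array per time, so none of these differences has a test.

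Of these 15 genes the extremes at 10 h were both type IV chains. Col4a1 read 6574.6, 4635.5 and 3985.7 at 0, 6 and 10 h, a difference of -0.72 at 10 h. Its other probe set, 1426348_at, read 2096.0, 1926.3 and 1764.9. Both probe sets were lower at 10 h than at 6 h and at 6 h than at 0 h. Col4a5 read 1214.3, 1333.6 and 1646.9, and its other probe set, 1425475_at, 488.8, 543.1 and 648.9, in the opposite order. Col4a2, the partner of Col4a1, read 2291.8, 2188.2 and 1981.3, and Col18a1 read 6092.8, 6599.4 and 7197.5.

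Of the fibrillar genes 3 were over the median on every PDKC1 array, and Col5a3 was over it at 10 h only, at 66.7, 62.7 and 103.1 at 0, 6 and 10 h. Col5a2 read 3125.2, 3076.0 and 3258.8 at 0, 6 and 10 h, and Col1a2 read 267.6, 253.2 and 259.5. Col5a1 read 2454.1, 2092.5 and 1986.5, a difference of -0.30 at 10 h. Col6a1 read 3277.4, 2810.1 and 2534.5 and Col6a2 read 1716.0, 1324.1 and 1349.2, so both were lower at 6 and 10 h than at 0 h, with differences of -0.37 and -0.34 at 10 h.

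Some genes were over the median at 0 h and under it at a later time, a choice that itself selects for lower values after 0 h. Col6a3 read 97.2, 37.2 and 69.5 at 0, 6 and 10 h (-1.09 and -0.40), Col14a1 read 80.4, 58.0 and 32.2 (-0.38 and -1.0), and Col23a1 read 109.8, 59.3 and 56.1 (-0.74 and -0.80). These levels lay near the medians of 78.1, 72.1 and 75.7. Col23a1 was read here on 1440911_at. Its other probe sets were both highest at 10 h, with 119.3, 110.4 and 134.2 on 1429209_at and 57.8, 41.5 and 70.0 on 1429210_at.

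The gene past the 2-fold rule was Col4a6, which was under the median at 0 h and entered the 21 genes only through the arrays on which it was high. Probe set 1421006_at read 21.2, 116.5 and 110.0 at 0, 6 and 10 h, differences of 1.83 and 1.76. Probe set 1421007_at read 9.2, 5.0 and 17.0, under the median probe set of each array, so the probe sets differed. With the mean of its probe sets Col4a6 did not pass the rule.

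**Figure D4:**
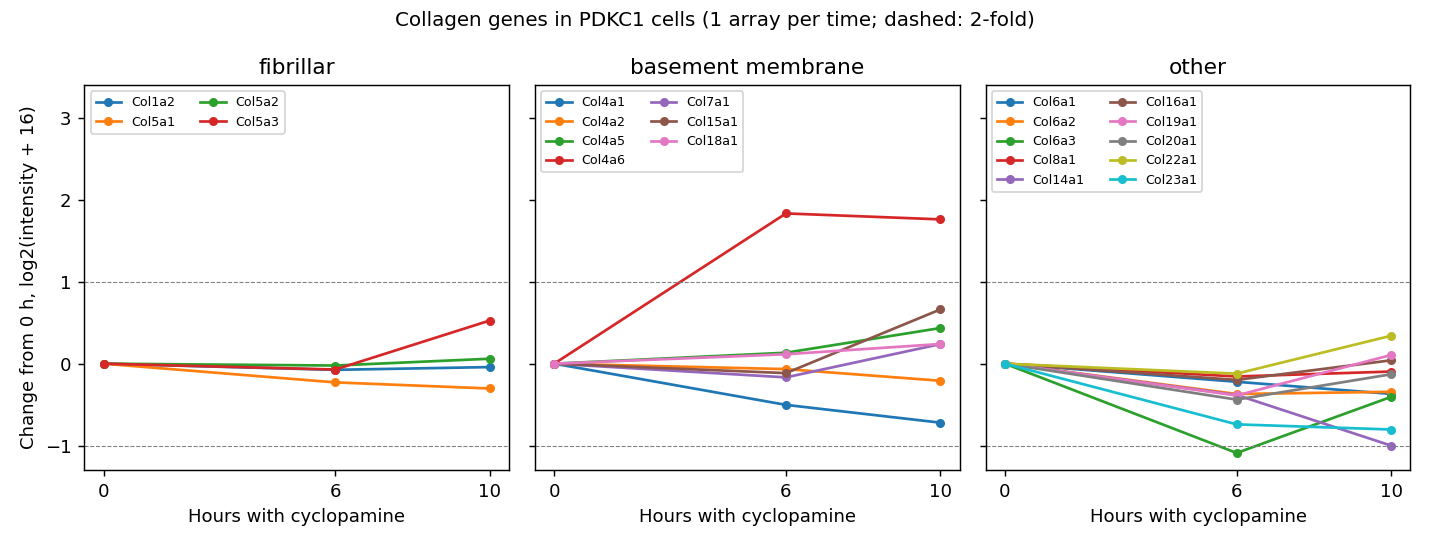
Difference from 0 h, in log2(intensity + 16), at 6 and 10 h with cyclopamine (1 array per time) for the 21 collagen genes over the median probe set on at least 1 PDKC1 array, by class. Dashed lines mark 2-fold. Col4a6 (1421006_at) lies beyond them at both times, at 1.83 and 1.76, and Col6a3 at 6 h, at -1.09, while Col14a1 reaches -1.0 at 10 h.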

How the data were processed

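Signal intensities on a linear scale were deposited by the authors, 1 value per probe set and array; the software that summarised the probes is not named in the sources used. The mean of each array without its lowest and highest 2% of probe sets was 500, and no further normalization was applied. Per the labels' protocols, labelled cRNA was made from 100 ng of RNA for tissue and 2000 ng for PDKC1. The gene-level fit held 18193 genes with 34945 probe sets, after removal of 64 control probe sets, 932 with several genes and 9160 with none. Each gene was represented by its probe set of highest mean log2 intensity across all 7 arrays. Of the 81 collagen probe sets 5 carry a suffix (_s or _x) that marks probes shared with other transcripts. No 2 arrays were identical. The number of arrays limits the precision.

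Values were taken as log2(intensity + 16), a scale on which fold changes of dim genes are understated. Tumour and epidermis (2 arrays each) entered a fit with lmFit and eBayes (limma 3.58.1, R 4.3.3) with a variance trend, tested two-sided, with Benjamini-Hochberg adjustment over all genes, or over all 45037 non-control probe sets for the values by probe set, and calls at an adjusted p under 0.05. The fit was checked on simulated data. PDKC1, with 1 array per time, was described by a 2-fold rule among genes over the median probe set on at least 1 of its arrays. Named were all fibrillar and basement membrane genes, the called or 2-fold changed genes of other types, and up to 4 called members of each gene list; probe sets beside the one that stood for a gene, pathway or marker genes set beside a result, and the uncalled genes of other types that are named were chosen after their values were seen. The members and lists were chosen with earlier results of these data known. Fkbp10, Adamts2, Adamts14, Loxl2, Itga11 and Fbn1 were not analysed here. Alternatives were quantile normalization, centring arrays on their medians, pseudocounts of 4 and 64, leaving out genes under the 40th percentile, averaging a gene's probe sets, a replicate block, a fit without the variance trend and leaving out each tissue array, and for PDKC1 a 1.5-fold rule and no filter.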

Additional observations from a re-analysis of the deposited data

How the results depend on the processing

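No collagen gene or probe set was called lower, and none of the 29 called genes changed sign, under any alternative fitted. Leaving out 1 array in turn gave 16 to 29 collagen genes higher, 1 to 7 basement membrane genes, 8 to 14 other genes, 29 to 47 probe sets, and 5 to 18 collagen pathway genes higher with 1 to 6 lower. The lowest counts came without an epidermis array, which leaves 1 epidermis array assumed to vary like the tumours. With each array centred on its median 2 basement membrane genes were higher. Under this scaling 7 pathway genes were higher and 7 lower, beside 1463 and 4713 of all 18193 genes. Pathway genes higher were 11 with quantile normalization and 11 with averaged probe sets, and 2 were lower without the variance trend. In PDKC1 a 1.5-fold rule gave 1 gene lower at both times, Col23a1 on 1440911_at. The other probe sets of Col23a1 were highest at 10 h among the PDKC1 arrays. No filter gave 2 genes higher (Col4a6 and Col13a1), and the mean of probe sets gave 0. With the replicate block 30 collagen genes and 48 probe sets were higher, Col8a1 being added; same-numbered arrays did not deviate together (correlation -6e-04), so they share only a number. The all-gene median turned to -0.19 with quantile normalization and -0.55 with centring. Sign turned in genes that were not called: with centring for Col4a5 (-0.068), Col6a4 (-0.27), Col9a2 (-0.041) and Col11a2 (-0.28; -0.10 with quantile normalization), with averaged probe sets for Col4a6 (0.22) and Col22a1 (0.55), and on leaving out 1 array for Col4a6 (-0.65 to 0.49), Col10a1 (-1.41 to 0.10), Col22a1 (-0.52 to 0.26) and Col26a1 (-1.002 to 0.046). Levels near or under 16 limit Col2a1, Col4a3, Col8a2 and Col24a1, whose differences fell to 1.42, 0.94, 1.90 and 1.22 with a pseudocount of 64. Leaving out dim genes kept 25 called genes in the test, all called. Beyond these, the cause of the changes was not tested.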
